A study of Homo sapiens with 27 samples.

Results

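The RNA levels of 10 genes of the YAP and TEAD system were compared across 4 lines of T47D cells, a luminal breast cancer cell line that grows in response to estrogen. The genes were taken by symbol from the gene count table: CTGF, CYR61 and ANKRD1 (secreted and nuclear target genes), AMOTL2, AJUBA and LATS2 (targets that also act back on the pathway), YAP1 and WWTR1 (the coactivators, WWTR1 encoding TAZ), and TEAD1 and TEAD4 (the DNA-binding factors). They were 10 of the 26485 genes listed, and all 10 were among the 14789 genes that passed the filter on low counts. The genes were listed by name for their known roles and not by a threshold on these values, but earlier results of these data were known when they were listed.

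The 4 lines were stable cell pools made by lentiviral infection and puromycin selection. The control carried the empty pHAGE vector. The Splice del, C321fs and A333fs lines each expressed 1 truncating GATA3 mutant as a Ty1-tagged protein, from a splice site deletion in the first case and from frameshifts in the second zinc finger in the others. Wild-type GATA3 was still present in all 4. Each line was represented by 3 RNA-seq libraries. There was 1 pool per mutant, so the mutant and the pool that carried it cannot be told apart, and p-values measure only the spread among libraries of a pool.

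YAP and TAZ are coactivators without a DNA-binding domain of their own. They are held in the cytoplasm when the Hippo kinases LATS1 and LATS2 phosphorylate them, and in the nucleus they bind TEAD factors on DNA and raise transcription. CTGF, CYR61 and ANKRD1 are the targets most often read as a sign of this activity, in mammary epithelium as in other tissues. AMOTL2 is a scaffold protein that binds and retains YAP, AJUBA is a LIM protein that restrains LATS kinases, and LATS2 is a kinase of the pathway that YAP itself induces, so these genes form feedback loops. The RNA of a coactivator or a TEAD says nothing of where its protein is in the cell.

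TEAD factors bind GGAATG, read CATTCC on the other strand (the MCAT element). RefSeq promoter windows on GRCh38.p14, from 250 bases before to 50 after a start site, were matched for 7 of the 10 genes, in 10 windows. No window was matched for CYR61, TEAD1 or TEAD4. Of all 35116 windows of this length, 14% held GGAATG on either strand, 1.37% held at least 2 and 0.128% at least 3. The CTGF window held 3 and that of ANKRD1 held 2. The LATS2 window, the AMOTL2 window that starts at 134374398, the AJUBA window that starts at 22976793 and the YAP1 window held 1 each, and neither WWTR1 window held any. Shown are the windows of both genes with the most matches and that of LATS2, a target with 1 match. Capitals mark GGAATG, and each sequence runs 5′ to 3′ on the strand of its gene.
CTGF (CCN2), chr6:131951323-131951622, minus strand: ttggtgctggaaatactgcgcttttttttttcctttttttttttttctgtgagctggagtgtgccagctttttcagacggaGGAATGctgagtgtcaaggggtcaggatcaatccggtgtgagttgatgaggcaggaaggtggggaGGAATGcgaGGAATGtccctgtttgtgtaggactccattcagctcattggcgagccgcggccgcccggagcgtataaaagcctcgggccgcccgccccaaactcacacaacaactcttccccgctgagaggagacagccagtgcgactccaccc
ANKRD1, chr10:90921038-90921337, minus strand: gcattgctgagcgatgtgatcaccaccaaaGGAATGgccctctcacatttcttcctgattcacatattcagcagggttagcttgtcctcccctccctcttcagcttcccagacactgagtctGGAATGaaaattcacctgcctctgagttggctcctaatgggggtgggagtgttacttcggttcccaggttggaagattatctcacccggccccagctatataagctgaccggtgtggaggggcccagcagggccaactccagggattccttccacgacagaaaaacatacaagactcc
LATS2, chr13:21061537-21061836, minus strand: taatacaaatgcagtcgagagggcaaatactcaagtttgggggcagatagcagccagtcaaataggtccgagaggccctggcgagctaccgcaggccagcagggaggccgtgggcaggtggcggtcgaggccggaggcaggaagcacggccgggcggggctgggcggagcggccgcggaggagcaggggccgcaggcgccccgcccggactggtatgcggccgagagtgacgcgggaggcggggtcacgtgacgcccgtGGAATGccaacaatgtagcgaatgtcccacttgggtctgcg
In CTGF the first letters of the matches lie at -169, -104 and -95 from the start site, and in ANKRD1 at -220 and -128. In LATS2 the match begins at 9 bases after the start site. The core of the GATA motif (AGATAA or AGATAG or TGATAA or TGATAG on either strand, none overlapping a GGAATG in these windows) was present in 25% of all windows. CTGF held none, and ANKRD1 and LATS2 held 1 each, at -52 and -206. A match is a stretch of letters and was not tested for binding.

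Libraries held 27872208 to 36788024 counted fragments. GATA3, which the mutant constructs share with the gene of the cell, was at 1247 to 1340 CPM (fragment counts normalized to a common library size) in control libraries and at 962 to 1155 in the mutant libraries, and gene counts do not separate the constructs from the cell's own RNA. All 9 luminal epithelial markers examined were expressed in every line, with a summed level of 9021 to 10816 CPM per kb of exon in control and 5730 to 7179 in the mutant lines. Most of this sum was KRT8, KRT18 and KRT19, with means of 3319, 1703 and 3783 in control. Of the 9 markers, 6, 8 and 6 were lower than control in Splice del, C321fs and A333fs, and 3, 1 and 3 were higher. Among all 14789 tested genes, 6953, 7089 and 7292 were lower. By the calls defined below, 3, 2 and 1 of the 9 markers were lower and 0 higher, beside 4.53%, 2.26% and 6.81% of all genes called lower. EPCAM was higher in all 3, at 278, 268 and 268 CPM against 208 in control. Of the 5 endothelial markers 4 or 5 stood at 3 counts or fewer in every library of a line. RNA levels also moved with GC content. Per 10 points of GC, log2 CPM of the tested genes within a library had slopes of 0.107 to 0.187 in control. The slopes were -0.216 to -0.132 in A333fs, -0.113 to -0.0244 in Splice del and -0.117 to 0.013 in C321fs.

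Normalized CPM were obtained with TMM, and each comparison was tested with edgeR's quasi-likelihood test over all 14789 genes with Benjamini-Hochberg adjustment (adjusted p). A gene was called when its adjusted p was below 0.01 and its fold change over 1.5. Against control, 3 of the 10 genes were called in A333fs, all higher (CTGF, ANKRD1 and WWTR1), with 12.3% of all genes called, 5.46% higher and 6.81% lower. In Splice del 3 were called, all lower (CYR61, AJUBA and TEAD4), with 10.7% of all genes called, 6.21% higher and 4.53% lower. In C321fs CYR61 alone was called, lower, with 6.88% of all genes called, 4.63% higher and 2.26% lower. ANKRD1 passed the low-count filter only through the A333fs libraries, so its call in that line is not independent of its being tested. With no minimum fold, 7 of the 10 had an adjusted p below 0.01 in A333fs, where 47.4% of all genes did, 5 in Splice del, where 41.1% did, and 4 in C321fs, where 36.8% did. The median log2 difference of the 10 genes from control was 0.05 for A333fs, 0.08 for Splice del and -0.01 for C321fs, beside 0.01, 0.03 and 0.02 over all genes. The 3 comparisons share the control libraries.

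**Figure D1:**
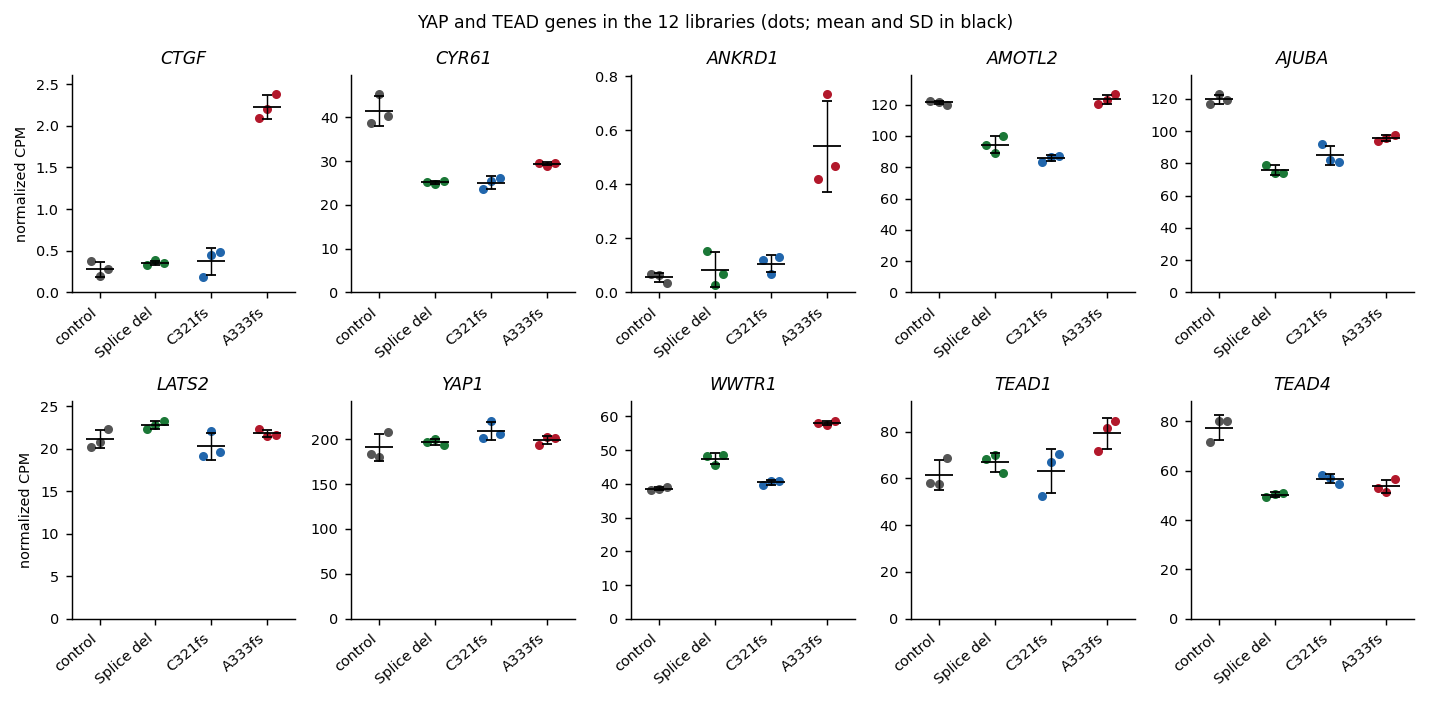
Normalized CPM (y axis, linear from 0) of the 10 genes in each of the 12 libraries, by line (x axis), with dots for libraries and a black bar and whisker for the mean and SD of 3. CTGF and ANKRD1 stand apart in A333fs, CYR61, AJUBA and TEAD4 are highest in control, and LATS2 and YAP1 overlap control in every mutant line.

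CTGF encodes a secreted matricellular protein of the CCN family. It was counted 11, 6 and 8 times in the control libraries, 65, 69 and 81 times in A333fs, 6, 13 and 15 times in C321fs and 13, 13 and 10 times in Splice del. The A333fs libraries were all above the other 9, which overlapped among themselves. The mean level was 2.23 ± 0.14 CPM in A333fs and 0.281 ± 0.090 in control (SD, n = 3). CTGF rose by 2.98 ± 0.27 on the log2 scale in A333fs (SE, adjusted p = 3.9e-07). Summed over libraries, 215 fragments in A333fs against 25 in control gave a ratio of 7.98, with a 95% interval from counting error alone of 5.26 to 12.6. In Splice del the difference from control was 0.34, with a 95% interval of -0.45 to 1.14, and in C321fs 0.39, with an interval of -0.41 to 1.2. Per kb of exon CTGF lay at the 10.2th percentile of all tested genes, by its mean over the 12 libraries, and its mean level in A333fs was 0.95 CPM per kb.

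ANKRD1 encodes a nuclear ankyrin repeat protein best known from heart and skeletal muscle. It was counted 2, 2 and 1 times in control, 13, 23 and 16 times in A333fs, 4, 2 and 4 times in C321fs and 6, 1 and 2 times in Splice del. Again the A333fs libraries were all above the other 9. All 3 control libraries were at or below 3 counts, taken here as the floor. The sums of 52 fragments in A333fs and 5 in control gave a ratio of 9.65, with a counting interval of 3.88 to 31.0. The log2 difference was 3.18 ± 0.52 (SE, adjusted p = 8.16e-05). For Splice del the ratio to control was 1.59 with an interval of 0.478 to 6.04, and for C321fs it was 1.93 with an interval of 0.602 to 7.21, so a difference was not detectable at this depth. ANKRD1 was the lowest of the 10 genes per kb of exon, at the 2.59th percentile.

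CTGF and ANKRD1 are also abundant in mesenchymal and myoepithelial cells, so the markers of these cells were read in the same libraries. Of 9 fibroblast markers, COL1A2, PDGFRA, PDGFRB and FAP were at 0 in all A333fs libraries. The summed level of the list was 11.4 to 13.7 CPM per kb in A333fs and 9.21 to 11.1 in control, 10.9 to 11.5 in Splice del and 7.16 to 8.67 in C321fs. Within the list DCN, which encodes decorin, was counted 383, 419 and 378 times in A333fs and 216, 225 and 164 times in Splice del, against 3, 1 and 2 times in control and 1, 0 and 1 times in C321fs. LUM, which encodes lumican, went the same way, with 138 to 176 counts in A333fs, 37 to 89 in Splice del, 6 to 15 in C321fs and 3 to 7 in control. COL3A1 was lower in A333fs, with 42 to 61 counts against 146 to 158 in control. COL1A1, the most abundant of the 9 in control, was lower too, with 953 to 985 counts in A333fs against 1420 to 1866. Of 7 basal or myoepithelial markers, KRT5 had at most 3 counts in any library, and KRT14 had 16 to 21 counts in A333fs and 0 to 1 in control. TP63 was highest in C321fs, with 23 to 24 counts against 7 to 11 in control, and had 11 to 22 in A333fs. MYLK had 192 to 234 counts in A333fs and 133 to 142 in control, and KRT17 7 to 11 and 1 to 6. The 5 markers tested were all higher in A333fs than in control, 2 of them called, with 5.46% of all genes called higher. KRT14 passed the low-count filter only through A333fs. In C321fs 3 of the 5 were higher, and in Splice del 2. The summed basal list was 11.7 to 13 CPM per kb in A333fs and 7.34 to 8.37 in control. It was 7.3 to 8.36 in Splice del and 7.97 to 10.3 in C321fs. Most of the sum was ACTA2, with means of 10.9 in A333fs and 7.13 in control, and ACTA2 shares 27.9% of its exon bases with another gene. The part of other cell types in the CTGF and ANKRD1 levels was not tested, and in bulk RNA a change in a share of cells and a change in RNA per cell cannot be told apart.

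CYR61 encodes the secreted CCN family protein closest to CTGF in use as a YAP readout and it was lower, not higher, in the mutant lines. Its level was 38.6, 45.2 and 40.3 CPM in control, 29.7, 29.0 and 29.6 in A333fs, 23.5, 25.6 and 26.2 in C321fs and 25.2, 24.8 and 25.4 in Splice del. All mutant libraries were below all control libraries, and the A333fs libraries were above those of the other mutants. CYR61 fell by 0.72 ± 0.07 on the log2 scale in Splice del (SE, adjusted p = 6.61e-07) and by 0.72 ± 0.07 in C321fs (adjusted p = 1.63e-06). Its A333fs difference of -0.49 ± 0.07 had an adjusted p of 1.48e-05 but lay inside the fold limit. Splice del and C321fs differed by 0.0016 with an interval of -0.14 to 0.15. CYR61 was far more abundant than CTGF in every line: per kb of exon, the ratio of CYR61 to CTGF within a library was 106 to 240 in control, 12.7 to 14.5 in A333fs, 55.2 to 132 in C321fs and 65.9 to 76.8 in Splice del. In the exact permutation test of this ratio A333fs differed from control with a two-sided p of 0.1, the smallest that 3 against 3 libraries can give.

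**Figure D2:**
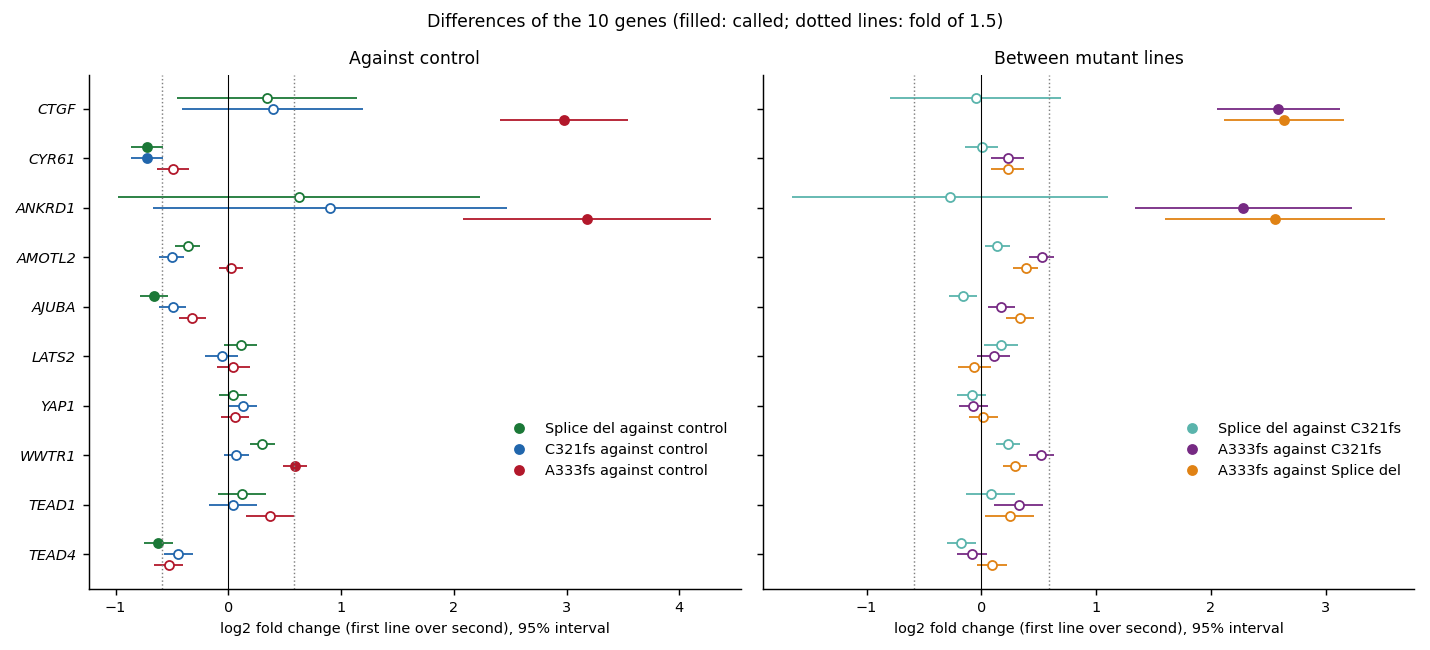
Log2 fold changes (x axis) of the 10 genes with 95% intervals, against control on the left and between mutant lines on the right, filled where called. The intervals of CTGF and ANKRD1 in A333fs lie beyond the dotted fold limit on both sides of the plot, and those of LATS2 and YAP1 stay within it throughout.

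Among the targets that feed back on the pathway, AJUBA was called lower in Splice del, and AMOTL2 and LATS2 were called in no mutant line against control. AJUBA was at 117, 123 and 119 CPM in control, 93.7, 95.8 and 97.8 in A333fs, 91.7, 82.3 and 80.8 in C321fs and 79.2, 74.2 and 73.8 in Splice del. No mutant library reached the lowest control library. AJUBA fell by 0.66 ± 0.06 on the log2 scale in Splice del (SE, adjusted p = 3.36e-07), while the differences of -0.49 in C321fs (adjusted p = 9.57e-06) and -0.32 in A333fs (adjusted p = 0.000178) were inside the fold limit. With upper-quartile scaling the AJUBA difference in Splice del was -0.57 and no longer called.

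AMOTL2 was at 122, 122 and 120 CPM in control, 120, 123 and 127 in A333fs, 83.4, 86.6 and 87.3 in C321fs and 94.2, 89.3 and 99.8 in Splice del. Control and A333fs libraries overlapped, and those of the other lines were below both. Its difference from control was 0.02 ± 0.05 in A333fs (SE, adjusted p = 0.714), -0.50 ± 0.05 in C321fs (adjusted p = 4.04e-06) and -0.36 ± 0.05 in Splice del (adjusted p = 3.27e-05). LATS2 stayed between 19.2 and 23.3 CPM in the 12 libraries, and its differences from control ran from -0.06 in C321fs to 0.11 in Splice del, with 95% intervals that together span -0.21 to 0.25.

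YAP1 had a mean level of 34.9 CPM per kb of exon over the 12 libraries, and was at 181 to 208 CPM in control and 193 to 221 in the mutant lines. It differed from control by 0.06 in A333fs, 0.13 in C321fs and 0.04 in Splice del, with 95% intervals that together span -0.08 to 0.26. WWTR1 was at 38.1, 38.6 and 39.0 CPM in control, 58.1, 57.6 and 58.8 in A333fs, 39.5, 41.0 and 41.0 in C321fs and 48.3, 45.7 and 48.6 in Splice del. The order was A333fs, Splice del, C321fs and control, with no overlap between lines. WWTR1 rose by 0.59 ± 0.05 on the log2 scale in A333fs (SE, adjusted p = 2.5e-07), just past the fold limit of 0.585. This call was lost in 2 of the fits that leave out 1 library (0.582 without control replicate 1 and 0.583 without A333fs replicate 3). The difference in Splice del was 0.30 (adjusted p = 0.000153) and in C321fs 0.07 (adjusted p = 0.272). Per kb of exon, WWTR1 made up 17.7 ± 1.0% of the summed YAP1 and WWTR1 level in control, 23.7 ± 0.5% in A333fs, 17.1 ± 0.5% in C321fs and 20.4 ± 0.8% in Splice del (SD, n = 3). The shares of A333fs were above those of every other line, each with an exact permutation p of 0.1, the smallest possible.

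TEAD4 was at 71.4, 80.2 and 80.1 CPM in control, 53.2, 51.1 and 56.5 in A333fs, 58.4, 57.1 and 54.7 in C321fs and 49.3, 50.7 and 50.9 in Splice del. Every mutant library was below every control library. TEAD4 fell by 0.62 ± 0.06 on the log2 scale in Splice del (SE, adjusted p = 1.03e-06). The differences of -0.45 in C321fs (adjusted p = 3.46e-05) and -0.53 in A333fs (adjusted p = 3.37e-06) were inside the fold limit. With upper-quartile scaling the TEAD4 difference in Splice del was -0.53 and no longer called. TEAD1 was at 58.2, 57.5 and 68.7 CPM in control and 71.6, 81.3 and 84.7 in A333fs, a difference of 0.37 ± 0.10 (SE, adjusted p = 0.00502) inside the fold limit. In Splice del and C321fs it overlapped control, with differences of 0.12 and 0.04.

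The TEAD family has 4 genes with nearly the same DNA-binding domain, so their shares of the summed level per kb of exon were also computed. TEAD4 held the largest share in control, 35.7 ± 0.6%, and held 31.8 ± 1.1% in A333fs, 31.8 ± 1.1% in C321fs and 28.3 ± 0.6% in Splice del (SD, n = 3). TEAD2 held 25.3 ± 0.6% in control, 31.9 ± 0.9% in A333fs, 28.8 ± 1.5% in C321fs and 33.2 ± 1.4% in Splice del. TEAD3 held 32.6 ± 0.7% in control and 25.5 ± 0.8% in A333fs, and TEAD1 held 6.52 ± 0.65% in control and 10.8 ± 0.8% in A333fs. The TEAD2 level itself was 59.0 ± 4.0 CPM in control, 57.8 ± 1.0 in A333fs, 55.5 ± 4.8 in C321fs and 63.6 ± 4.2 in Splice del (SD, n = 3), and its F-test across the lines had an adjusted p of 0.106. The TEAD4 and TEAD2 shares of each mutant line did not overlap control, again with an exact permutation p of 0.1, and all 4 TEAD genes were expressed in every line. These shares were not corrected for GC content, which was 43.0% in TEAD1, 58.3% in TEAD2, 59.8% in TEAD3 and 63.4% in TEAD4.

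**Figure D3:**
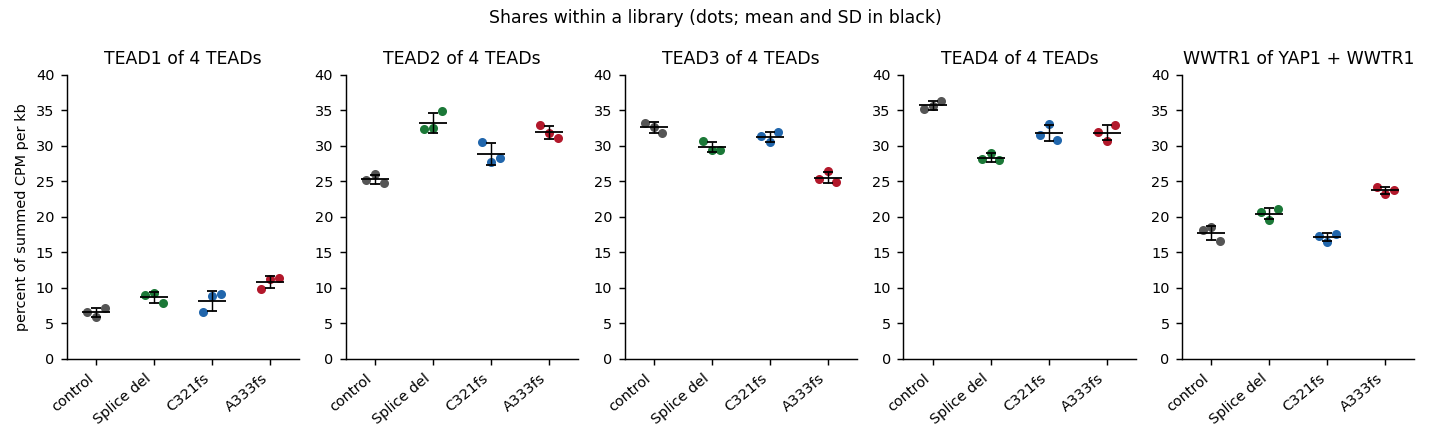
Share in percent (y axis, from 0) of each TEAD in the summed CPM per kb of the 4 TEAD genes, and of WWTR1 in that of YAP1 and WWTR1, for each library by line (x axis), with mean and SD in black. The TEAD4 share is highest in control and the WWTR1 share highest in A333fs.

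The GC content of the exons differed among the 10 genes, from 42.4% in WWTR1 to 63.4% in TEAD4, the latter at the 92.3rd percentile of all genes tested. Genes within 2 points of the GC content of WWTR1 had a median log2 difference of 0.28 between A333fs and control, and those near TEAD4 one of -0.47. With the trend over GC content and exon length removed from each library, the A333fs difference was 0.32 for WWTR1 and -0.12 for TEAD4, and neither WWTR1 in A333fs nor TEAD4 in Splice del (-0.42) was called. TEAD1 in A333fs was at 0.18 after this removal, with an adjusted p of 0.0121, no longer below 0.01. Genes near TEAD1 in GC had a median of 0.26 there without the removal. The values for CTGF (3.0), ANKRD1 (2.92) and CYR61 (-0.52) in A333fs stayed close to those without the correction (2.98, 3.18 and -0.49), and CTGF and ANKRD1 kept their calls. Likewise CYR61 in Splice del and C321fs (-0.74 in both) and AJUBA in Splice del (-0.67) kept theirs. YAP1 had small positive differences from control in each mutant line and negative ones after the correction, from -0.19 to -0.04, with an adjusted p below 0.01 in Splice del (0.0013) and A333fs (0.002), inside the fold limit.

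**Figure D4:**
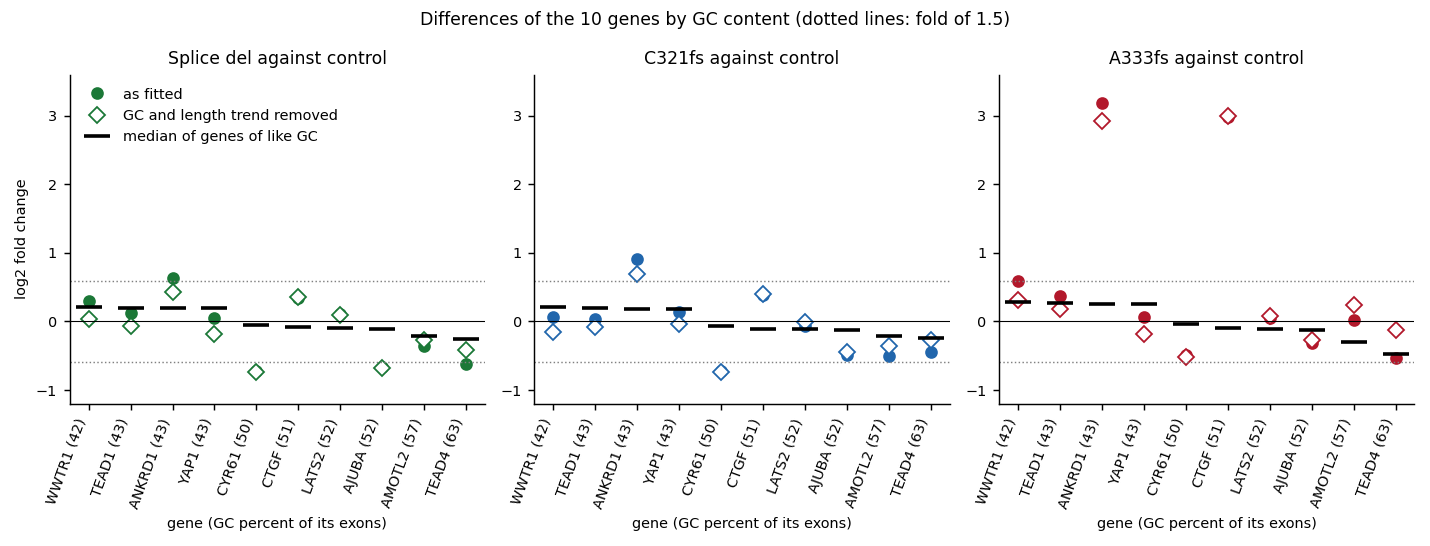
Log2 fold change against control (y axis) of the 10 genes ordered by GC content of their exons (x axis), as fitted (filled), with the GC and length trend removed (open diamonds), and the median of genes within 2 points of GC (black dashes). The dashes fall from left to right in each panel, and CTGF and ANKRD1 lie far above them in A333fs with and without the trend.

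The mutant lines were also compared directly. In A333fs against C321fs, CTGF rose by 2.58 ± 0.25 and ANKRD1 by 2.28 ± 0.44 on the log2 scale (SE, adjusted p = 1.5e-06 and 0.00128), with 5.55% of all genes called and 2.47% called higher. In A333fs against Splice del, CTGF rose by 2.63 ± 0.25 and ANKRD1 by 2.55 ± 0.45 (adjusted p = 3.13e-06 and 0.000934), with 3.0% of all genes called and 1.03% called higher. These were the only 2 of the 10 genes called in either comparison, and ANKRD1 was tested only because it passed the low-count filter in A333fs. With no minimum fold, 4 genes in the first comparison and 5 in the second had an adjusted p below 0.01, as did 15.7% and 11.9% of all genes. WWTR1 and AMOTL2 differed from C321fs by 0.52 each in A333fs (adjusted p = 1.5e-06 and 1.9e-06), inside the fold limit. Between Splice del and C321fs none of the 10 was called, with 2.64% of all genes called. There 5 of the 10 had an unadjusted p below 0.05, DESeq2 also called none, and WWTR1, with 0.23, was the only one of the 10 with an adjusted p (0.0066) below 0.01, where 6.32% of all genes had one. By an F-test across the 4 lines, 7 of the 10 genes passed the same threshold, as did 56.2% of all genes. LATS2, YAP1 and TEAD1 did not, with adjusted p of 0.161, 0.235 and 0.0144.

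Of 24 other listed target genes of YAP and TAZ, 19 were tested. Against control none was called in Splice del (DESeq2 likewise called none and 8 had an unadjusted p below 0.05), 2 in C321fs and 1 in A333fs, all higher. Among all genes 10.7%, 6.88% and 12.3% were called in Splice del, C321fs and A333fs. With no minimum fold, an adjusted p below 0.01 was reached by 1 higher and 4 lower in Splice del, 3 higher and 5 lower in C321fs and 6 higher and 3 lower in A333fs. That threshold was passed by 41.1%, 36.8% and 47.4% of all genes. The medians of the log2 differences of the 19 targets were -0.01, -0.02 and 0.23, beside 0.03, 0.02 and 0.01 over all genes. TGFB2, which encodes a TGF-β ligand, was at 1.15, 1.35 and 1.42 CPM in control and 3.81, 3.96 and 3.73 in A333fs, and rose by 1.55 ± 0.16 (SE, adjusted p = 1.6e-06). It shares 25.2% of its exon bases with other genes, and reads of overlapping genes cannot be separated. AREG, which encodes the EGF receptor ligand amphiregulin, rose in C321fs alone, to 38.1, 38.9 and 34.2 CPM from 20.9, 19.7 and 19.0 in control (0.90 ± 0.07, adjusted p = 2.3e-07). GADD45A was the other gene called in C321fs (0.59, adjusted p = 0.0052), and it is named here after its value was seen. The GADD45A call was lost without control replicate 2 (0.53) or 3 (0.58), C321fs replicate 1 (0.55) or 3 (0.57), or 5 of the 6 libraries of the other lines (0.58 each), as it lies at the fold limit. THBS1, which encodes thrombospondin 1, was called in no mutant against control and was higher in A333fs than in Splice del by 0.76 and than in C321fs by 0.62 (adjusted p = 1.6e-06 and 3.7e-06), the second lost without A333fs replicate 3 (0.55) or after removal of the GC and length trends (0.54). FJX1 was higher in A333fs than in Splice del by 0.61 (adjusted p = 3e-05), a call lost without Splice del replicate 1 (0.58), and the kinase gene NUAK2 was higher in Splice del than in C321fs by 0.67 (adjusted p = 1.2e-05).

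Of 25 further Hippo pathway regulators and TEAD partners, 24 were tested. In Splice del 3 were called higher and none lower, in C321fs 1 higher and 2 lower, and in A333fs 2 higher and 1 lower. Over all genes 10.7%, 6.88% and 12.3% were called in these lines. The median differences of the 24 were 0.11, -0.07 and 0.06, beside 0.03, 0.02 and 0.01 over all genes. AMOT, which encodes the founding member of the angiomotin family, was at 1.56, 1.64 and 1.15 CPM in control, 4.28, 4.34 and 5.12 in Splice del and 2.78, 3.16 and 3.49 in A333fs. It rose by 1.65 ± 0.20 in Splice del and by 1.11 ± 0.22 in A333fs (SE, adjusted p = 9e-06 and 0.00037). AMOTL1, of the same family, fell by 0.82 ± 0.11 in C321fs (adjusted p = 4.3e-05), and VGLL1, a TEAD cofactor, fell by 1.07 in C321fs and rose by 1.11 in A333fs (adjusted p = 0.007 and 0.00033). TEAD3 fell by 0.72 ± 0.06 in A333fs (adjusted p = 8.1e-08), a call lost after removal of the GC and length trends (-0.39) and with library totals (-0.57). TAOK3, an upstream kinase, was called only between mutant lines, higher in A333fs than in C321fs by 0.60 (adjusted p = 5.6e-06), a call lost without C321fs replicate 1 (0.53) or after removal of the GC and length trends (0.54). FRMD6 was called higher in Splice del and C321fs (0.74 and 0.66) and VGLL3 in Splice del (1.88), and both are named after their values were seen. After removal of the GC and length trends, FRMD6 was at 0.47 in Splice del and 0.43 in C321fs, VGLL3 at 1.57 in Splice del and VGLL1 at -1.04 in C321fs, and none of these was called. Without control replicate 1, the calls of VGLL1 in C321fs (-1.14), FRMD6 in C321fs (0.58) and VGLL3 in Splice del (1.88) were lost, and the VGLL1 and VGLL3 calls were also lost without each other library of the lines compared. The core kinases and their partners STK3, STK4, SAV1, LATS1, MOB1A and MOB1B were called in no mutant line against control. STK3 and MOB1A still differed across the lines by the F-test (adjusted p = 5.1e-05 and 0.00017), as did 56.2% of all genes at 0.01. STK3 was at 19.3 to 20.2 CPM in control and 22.3 to 28.2 in the mutant lines, and MOB1A at 57.6 to 61.8 and 65.8 to 76.4. STK4, SAV1, LATS1 and MOB1B had F-test adjusted p of 0.0323 to 0.332.

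**Figure D5:**
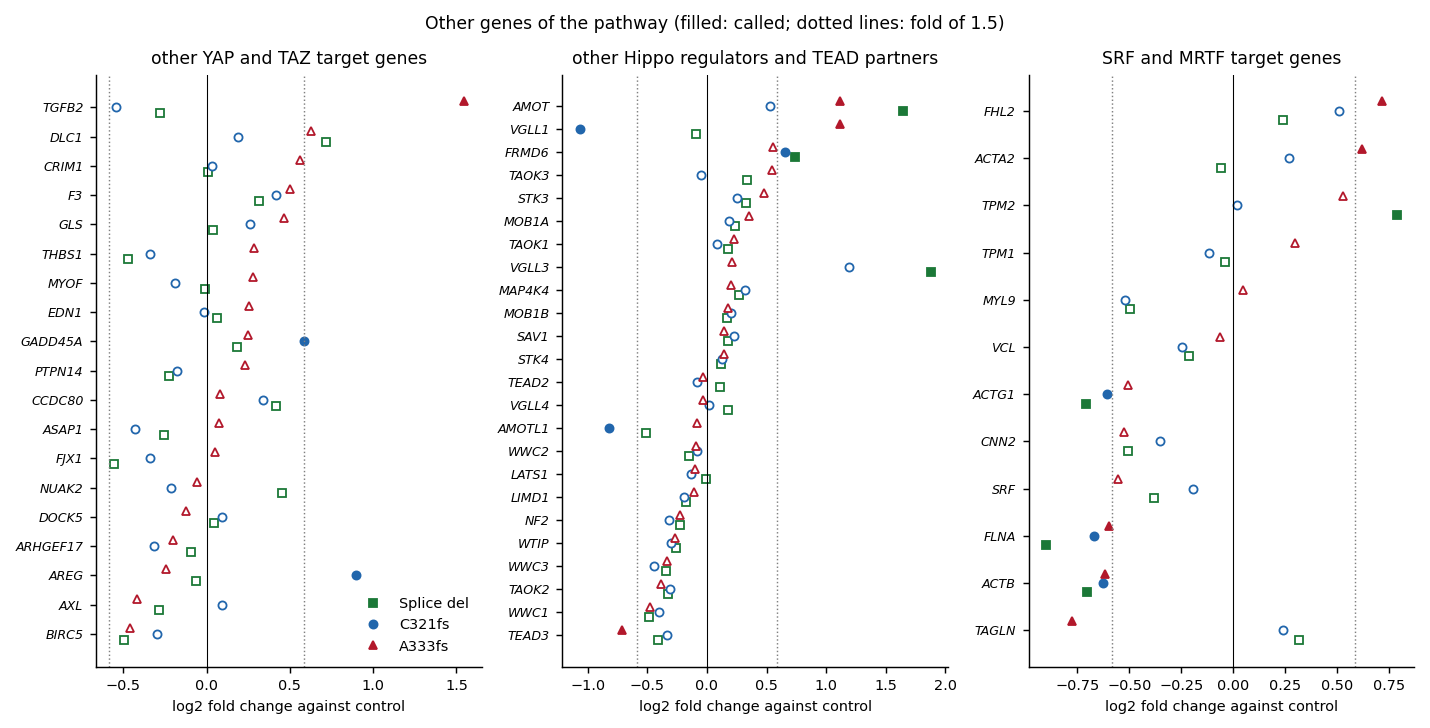
Log2 fold change against control (x axis) of the tested genes (y axis, ordered by A333fs) of 3 lists in Splice del (squares), C321fs (circles) and A333fs (triangles), filled where called. Most symbols lie between the dotted fold limits, with TGFB2 at 1.55 in A333fs and AMOT at 1.65 in Splice del among the exceptions.

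CTGF and CYR61 have 4 further relatives in the CCN family, of which WISP2 alone was tested. It was at 10.5, 13.4 and 10.5 CPM in control and at 16.2 to 24.4 in the mutant lines, and it rose by 1.01 in A333fs, by 0.87 in Splice del and by 0.82 in C321fs (adjusted p = 1.6e-05, 7.7e-05 and 0.0002). CTGF and CYR61 also respond to the serum response factor SRF with its actin-sensing cofactors MRTF, so 13 targets of that route were read as well, 12 of them tested. In A333fs 2 were called higher and 3 lower, in C321fs none higher and 3 lower, and in Splice del 1 higher and 3 lower. Over all genes 12.3%, 6.88% and 10.7% were called in these lines. The median differences of the 12 were -0.29, -0.22 and -0.30, beside 0.01, 0.02 and 0.03 over all genes. ACTB and FLNA, which encode β-actin and filamin A, fell in Splice del, C321fs and A333fs, ACTB by 0.70, 0.62 and 0.62 (adjusted p = 1.7e-06, 9.6e-06 and 4.1e-06) and FLNA by 0.90, 0.67 and 0.60 (adjusted p = 2.1e-07, 7.1e-06 and 7.3e-06). ACTG1, which encodes γ-actin, fell by 0.71 in Splice del and 0.61 in C321fs and was lower by a value inside the limit in A333fs (-0.50). In A333fs FHL2 rose by 0.72 and ACTA2 by 0.62, while TAGLN, which encodes transgelin, fell by 0.78 (adjusted p = 1.3e-08, 7.8e-05 and 1.6e-05). After removal of the GC and length trends, none of the lower calls in A333fs was kept (TAGLN -0.50, ACTB -0.45 and FLNA -0.26), nor any in C321fs (ACTB -0.54, ACTG1 -0.49 and FLNA -0.44), and in Splice del ACTG1 (-0.58) lost its call. TPM2 rose by 0.79 in Splice del (adjusted p = 0.0097), a call lost without any 1 control or Splice del library (0.70 to 0.94). Calls were also lost without control replicate 2 for ACTB in A333fs (-0.53), for FLNA in A333fs (-0.55) and for ACTB and ACTG1 in C321fs (-0.54 and -0.53), without control replicate 1 for ACTA2 in A333fs (0.56), without A333fs replicate 2 for ACTB and FLNA in A333fs (-0.56 and -0.54), and without control replicate 3 or A333fs replicate 1 for FLNA in A333fs (-0.58 and -0.56).

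For CTGF, CYR61 and ANKRD1 the tested genes with the most similar pattern were taken by the root mean square difference of centred log2 CPM over the 12 libraries. For CTGF these were FPR3, CDH10 and ROBO2, with differences of 0.303, 0.308 and 0.410, against 1.16 for the spread of CTGF itself around its mean. FPR3 was at 0 to 0.0972 CPM in the other lines and 0.323 to 0.587 in A333fs. CDH10 was at 0.139 to 0.324 CPM in the other lines and 1.39 to 2.20 in A333fs. FPR3 and CDH10 passed the low-count filter only with the A333fs libraries, so their likeness to CTGF is not independent of that filter. ROBO2, which encodes a receptor for Slit proteins, was at 3.62 to 3.96 CPM in control and 14.2 to 15.7 in A333fs. For ANKRD1 they were PAMR1, ROBO2 and VTCN1, with differences of 0.406, 0.443 and 0.474, against 0.975 for ANKRD1 itself. ANKRD1 passed the low-count filter only through A333fs, so its likeness to these genes is not independent of the filter either. For CYR61 they were SMTN, PRPF6 and ACTG1, with differences of 0.0621, 0.0634 and 0.0651, against 0.298 for CYR61 itself. ACTG1, which is on the SRF list, was at 3071 to 3588 CPM in control and 1929 to 2345 in the mutant lines. PRPF6, which is on no list here, was at 262 to 307 and 179 to 217. A shared cause was not tested. This likeness is a description over 12 libraries that share lines and depth.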

How the data were processed

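RNA-seq of 12 libraries from 4 T47D lines was used, 3 per line. The values are counts as deposited: after trimming (Trimmomatic) and alignment to hg38, the authors ran featureCounts 1.6.4 on proper read pairs, without strand information, and neither normalized nor pooled the result. The file header and the submitters' notes name different aligners, and the labels and the methods name different growth media. The ChIP-seq was not used here.

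Genes were kept with filterByExpr by line (14789 of 26485 genes, at least 10 counts, a cutoff of 0.321 CPM). TMM factors and quasi-likelihood fits came from edgeR 4.0.16 (R 4.3.3), with 1 coefficient per line over 12 libraries and p-values adjusted over all tested genes. The biological coefficient of variation was 6.73%. Calls needed an adjusted p below 0.01 and a fold over 1.5. Intervals of count ratios are exact binomial at 95% and cover counting error only, and at most 3 counts in each library of a line was taken as the floor. log2 CPM for pattern likeness used a prior count of 2. The 10 genes, the lists and the tests were chosen with earlier results of these data known.

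From each wider list, the genes called in all 3 mutant lines in one direction and at most 5 others with the smallest adjusted p among the lines that were called in any comparison were named, all 10 genes were named throughout, and the 3 genes of nearest pattern were named for CTGF, CYR61 and ANKRD1. GC content and exon length came from the file's exons on hg38. Of 23503 genes matched by symbol to GENCODE v44, 99.8% overlapped its spans, and CTGF and CYR61 are CCN2 and CCN1 in current naming. No exon base of the 10 genes is shared with another gene in the file. Leukocyte markers were also read: their summed level was 1.28 to 1.58 CPM per kb in control and 1.61 to 2.95 in the mutant lines, with PTPRC at 0 in all. Alternatives were RLE, upper-quartile and library-total scaling, no low-count filter, DESeq2 1.42.0, no minimum fold, pairs of lines alone, a replicate block, removal of GC and length trends (loess, span 0.3), and each library left out. The procedure was tested on simulated data.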

Additional observations from a re-analysis of the deposited data

Results flagged for a closer look

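The log2 difference of CTGF from control was larger in A333fs than in C321fs by 2.58 (edgeR adjusted p = 1.5e-06) and larger than in Splice del by 2.63 (adjusted p = 3.13e-06). These are tests of the difference itself. For ANKRD1, which passed the low-count filter only through the A333fs libraries, so that its test is not independent of its being high there, the difference was 2.28 against C321fs (adjusted p = 0.00128) and 2.55 against Splice del (adjusted p = 0.000934). In each of these comparisons the 3 libraries of A333fs were above the 3 of the other line. ANKRD1 rests on 13 to 23 counts in A333fs libraries and 1 to 6 in the others.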

How the results depend on the processing

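The calls of CTGF and ANKRD1 in A333fs, against control and against each other mutant line, were kept in all 21 alternatives run for them, with log2 differences from control of 2.76 to 3.23 and 2.92 to 3.33. CYR61 kept its calls in 20 of 21 (lost with library totals alone, at -0.53 in Splice del and -0.55 in C321fs), AJUBA in 19, TEAD4 in 17 and WWTR1 in 17. AMOTL2 in A333fs against C321fs was called, at 0.60, with GC and length trends removed. The cause of these losses was not tested. Scaling moved the median of all genes: against control it was 0.12, 0.11 and 0.12 with upper-quartile scaling and 0.22, 0.19 and 0.16 with library totals, in Splice del, C321fs and A333fs. The numbers of genes called higher and lower moved with it, from 918 and 670, 684 and 334, and 808 and 1007 to 1321 and 348, 1024 and 163, and 1329 and 475, and to 2025 and 171, 1518 and 110, and 1544 and 380. With GC and length trends removed they were 688 and 359, 472 and 190, and 578 and 228. Replicate numbers did not pair the libraries (mean residual correlation of same-numbered libraries -0.0092 over 18 pairs, range -0.123 to 0.165), and a replicate block changed no call of the 10 genes.

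Of the 10 genes, with no minimum fold 5, 4 and 7 were called against control in Splice del, C321fs and A333fs, 1 between Splice del and C321fs, and 4 and 5 in A333fs against C321fs and Splice del. In the same order, 41.1%, 36.8%, 47.4%, 6.32%, 15.7% and 11.9% of all genes were. The first 3 of these shares also stand beside the wider lists below. All-gene calls with upper-quartile scaling, library totals and trends removed are given above. Upper-quartile scaling left 1 in Splice del, and library totals 0 in Splice del and 0 in C321fs. Without single libraries the counts were 3 to 3, 1 to 1, 2 to 3, 0 to 0, 2 to 2 and 2 to 2, and 7 to 8 genes differed among the lines. Of the other YAP and TAZ targets 5, 8 and 9 were called with no minimum fold in Splice del, C321fs and A333fs, 2 in Splice del and 3 in A333fs with library totals, 2 in A333fs with upper-quartile scaling and with no filter, 1 in C321fs with RLE, DESeq2 or no filter, and 1 in Splice del with trends removed, with or without a replicate block. Single libraries left out gave 0 to 1, 1 to 2 and 1 to 2. Of the Hippo regulators 13, 11 and 11 were called with no minimum fold, 6 and 5 in A333fs with upper-quartile and library-total scaling, and 1 in Splice del and 1 in C321fs with trends removed, with or without a block. Single libraries left out gave 2 to 3, 1 to 3 (1 without control replicate 1) and 3 to 5 (5 without control replicate 3 or A333fs replicate 2).

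Directions that turned were all of uncalled differences. With trends removed, YAP1 was at -0.19, -0.043 and -0.18 in Splice del, C321fs and A333fs, TEAD1 at -0.068 in Splice del and -0.082 in C321fs, WWTR1 at -0.15 in C321fs, TEAD4 at 0.16 in A333fs against C321fs, and CYR61 at -0.00033 between Splice del and C321fs. A replicate block beside the trend removal gave the same values to 2 digits except for TEAD1 in Splice del, at -0.065, and for CYR61, which did not turn with the block. LATS2 in C321fs was at 0.026 with upper-quartile scaling and 0.11 with library totals, and YAP1 in A333fs against Splice del at -0.023 with library totals. Without single libraries, ANKRD1 ran from -0.20 to 1.03 in Splice del against control, and between Splice del and C321fs ANKRD1 from -1.11 to 0.13, CTGF from -0.40 to 0.20, CYR61 from -0.044 to 0.035 and TEAD1 from -0.038 to 0.16. TEAD1 in C321fs ran from -0.044 to 0.16. The 43 calls of the wider lists' genes (other YAP and TAZ targets, Hippo regulators, CCN and SRF genes) kept their direction in all alternatives, and 24 were kept in all 21. The others were lost in 1 to 15, most often VGLL1 in C321fs (15), GADD45A in C321fs (12) and FLNA in A333fs (10). Depth limits CTGF and ANKRD1 most, with 25 and 5 fragments over the control libraries.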
